A study of Homo sapiens with 27 samples.

Results

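The comparison described here set cells that carry the V2084D form of ARID1A against cells that carry the wild-type form (WT), in the libraries labelled Huh7, a hepatocellular carcinoma line. The tested material was 6 RNA sequencing libraries out of 27 in the series, 3 for V2084D and 3 for WT. All 6 came from cells in which the endogenous ARID1A gene had been knocked out and a Flag-tagged ARID1A cDNA had been put back by lentivirus, with a valine near the C-terminus changed to aspartate (V2084D) or unchanged (WT). Another 3 libraries had the V2084D form together with a short hairpin RNA that knocks down STUB1 (shSTUB1). They were not compared, and their levels are given side by side. They did enter the same fit, so their spread is part of each SE and p-value. No knockout library without a reintroduced form entered this comparison, so the part of ARID1A reads that came from the introduced copy was not measured. The labels do not say whether the replicates were separate cultures or whether the lines were clones or pools. The p-values therefore measure the spread between these libraries, and a difference between the WT and V2084D lines that came from clone or passage cannot be told apart from the amino acid change. Genes were tested where at least 10 counts were seen in at least 3 of the 6 libraries, which kept 21600 of 67130 genes.

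ARID1A is the large DNA-binding subunit that defines the canonical BAF (SWI/SNF) complex, an ATP-driven machine that slides and ejects nucleosomes at enhancers and promoters. The gene is among those most often inactivated by mutation in human cancers, liver cancer included. Its C-terminal part holds a helical repeat domain through which it binds the other BAF subunits. STUB1 (also called CHIP) is a ubiquitin ligase that takes misfolded client proteins from HSP70 and HSP90 chaperones and marks them for the proteasome. The altered residue lies in the last exon of the gene. The stretch below is the reference coding strand of transcript ARID1A-201 (exon 20 of 20, 2285 codons, GRCh38 chr1:26780118-26780186, plus strand), and the capitals mark the valine codon that V2084D replaces.

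ARID1A coding strand: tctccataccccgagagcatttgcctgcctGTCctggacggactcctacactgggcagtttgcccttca

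The libraries held 59124374 to 79915177 counts each, and the first principal component of the 9 libraries, with 36.7% of the variance, put all 3 WT libraries on one side and all V2084D and shSTUB1 libraries on the other. Mitochondrially encoded transcripts took 2.32 to 2.97% of counts in V2084D and 3.27 to 3.50% in WT. The cell line label was checked against marker genes. Of 35 liver genes, 16 were tested and 5 reached 10 CPM in at least 1 library (library-size-scaled read counts in the usual per-million unit, adjusted by the TMM method of edgeR). These 5 were CEBPA, CPS1, GPC3, FOXA1 and FOXA3, with CEBPA at 27.1 CPM in V2084D and 30.3 CPM in WT and GPC3 at 18.5 and 17.7 CPM. The plasma proteins that define a hepatocyte were at or near 0: albumin (ALB) averaged 0.831 CPM in V2084D and 0.146 CPM in WT, apolipoprotein B (APOB) 0.0435 and 2.31 CPM, and transthyretin (TTR) 0 in both. Of 18 genes typical of 293 embryonic kidney cells, 16 were tested and all 16 reached 1 CPM in at least 1 of the 6 libraries, with MAP1B at 110 CPM in V2084D and 87.1 CPM in WT. PAX8 and DCX of the same list were near 0, at 0 and 0.044 CPM in V2084D and 0.0194 and 0.0263 CPM in WT. The plasma proteins and most of the 293 genes thus go against the label, while the 5 liver genes named first do not, and the libraries are called by it only as a name. Of 4 immune and 4 endothelial markers, PTPRC, CD3E, LYZ and CDH5 were at 0 in all 6 libraries, and the lists summed to 0.669 to 1.53 CPM in V2084D and 0.0703 to 0.221 CPM in WT for immune genes and to 1.93 to 3.33 CPM in V2084D and 1.27 to 2.81 CPM in WT for endothelial ones. The levels came mainly from CD68, the single immune marker tested, which was called higher, and from KDR, which was not called. Of the fibroblast markers COL1A1 was at 45.5 CPM in V2084D and 39.4 CPM in WT and COL3A1 at 41.8 and 33.4 CPM. The rest were low. In V2084D and WT, COL1A2 averaged 0.228 and 0.00526 CPM and DCN 0.66 and 0.252 CPM. LUM averaged 0.273 and 0.828 CPM and PDGFRB 1.11 and 1.46 CPM. Of 6 fibroblast markers 4 were called higher (COL1A1, COL1A2, COL3A1 and DCN), each losing the call in at least 1 alternative fit, and the list summed to 85.9 to 92.5 CPM in V2084D and 74.8 to 75.8 CPM in WT. The part of other cells in the results was not tested.

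Expression differed widely between the groups. At an adjusted p below 0.05 (edgeR quasi-likelihood F test, Benjamini-Hochberg over all genes tested), 9481 genes were called, which is 43.9% of those tested. Of these 4937 (22.9%) were higher and 4544 (21.0%) lower in V2084D than in WT. Most differences were modest: the median absolute log2 difference of a called gene was 0.65, and with a log2 difference of at least 1 there were 1551 higher genes (7.18%) and 933 lower ones (4.32%). The groups did not overlap in CPM for 12281 genes (56.9%). Because so many genes were called, each count of a gene group below is to be read against these shares, and the median log2 difference of a group against the median of 0.02 over all genes tested. The shares themselves changed with expression level. Among 3985 genes averaging over 64 CPM 23.4% rose and 39.1% fell (median -0.11), and among 3192 at 4 to 16 CPM 34.4% rose and 18.1% fell (median 0.15). The gene groups were not matched for level, so groups of abundant genes have a higher share of falls to be read against.

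ARID1A itself, the gene altered by design, had 268, 270 and 216 CPM in V2084D and 340, 365 and 403 CPM in WT. The groups did not overlap, and the log2 difference was -0.56 (SE 0.183, adjusted p = 0.0302, edgeR). The call was lost in 7 of the 16 alternative fits, with an adjusted p of up to 0.108. All 7 kept shSTUB1 replicate 2, where ARID1A was at 190 CPM, beside 291 and 352 CPM in the other shSTUB1 libraries. Fits that held the call kept it too, RLE size factors and DESeq2 among them. Most of the 7 left out 1 of the compared libraries. Without shSTUB1 replicate 2, a fit added after seeing the data, the log2 difference was -0.56 (SE 0.102, adjusted p = 8.6e-04, edgeR). With the 6 compared libraries only it was -0.55 (adjusted p = 7.0e-04, edgeR). Why the call was lost was not tested. STUB1 had 251, 247 and 296 CPM in V2084D and 228, 214 and 245 CPM in WT. Its log2 difference of 0.21 missed the threshold (adjusted p = 0.118, edgeR). It also missed in most alternative fits, but passed at the same 0.21 without shSTUB1 replicate 2 (adjusted p = 0.0431, edgeR). STUB1 was at 67.3 to 84.3 CPM with shSTUB1. Among the subunits of BAF and its sister complexes 14 of 31 tested genes fell and 2 rose (PHF10 and SMARCA2), with a median log2 difference of -0.25. The ATPase SMARCA4 had 239, 239 and 250 CPM in V2084D and 477, 470 and 518 CPM in WT (log2 -1.01, SE 0.0887, adjusted p = 9.1e-06, edgeR). The core subunit SMARCB1 fell by 0.70 on the log2 scale and the actin-like subunit ACTL6A by 0.90. ACTB, which encodes the cytoskeletal actin that is also a BAF subunit, was at 542 to 613 CPM in V2084D and 1836 to 2001 CPM in WT (log2 -1.72), and ACTG1, the gene of the other cytoplasmic actin, fell by 1.59. Part of the list's change is thus in a gene with a much wider role.

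Chaperones of the cytosol were much lower in V2084D, and HSPA8 had the smallest adjusted p of all genes tested. Heat shock proteins fold new and damaged proteins. Their genes are switched on together by the transcription factor HSF1, which binds inverted repeats of the letters GAA (the heat shock element). HSPA8, the constitutive HSP70, had 278, 275 and 271 CPM in V2084D and 2011, 2012 and 2031 CPM in WT. No library came near the other group, and the log2 difference was -2.88 (SE 0.0463, adjusted p = 1.5e-10, edgeR). The stress-inducible HSP70 genes went the same way: HSPA1B had 109, 97.8 and 104 CPM in V2084D and 1010, 994 and 1117 CPM in WT (log2 -3.33, SE 0.0759), and HSPA1A had 58.2, 47.8 and 55.4 CPM in V2084D and 571, 539 and 616 CPM in WT (log2 -3.42, SE 0.0895). These neighbours on chromosome 6 are nearly identical in their coding sequence, so the split of reads between them is uncertain, while both stood apart in every library.

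HSP90AA1, the inducible HSP90, was at 992, 1020 and 1065 CPM in V2084D and 3687, 3599 and 3424 CPM in WT (log2 -1.80, SE 0.0469, adjusted p = 4.2e-09, edgeR). HSPH1, a nucleotide exchange factor for HSP70, fell by 2.16 on the log2 scale, and DNAJB1, an HSP40 that delivers clients to HSP70, by 1.65. Over the whole list 21 of 32 tested heat shock genes fell, 4 rose and the median log2 difference was -0.75. The 4 that rose were HSF2 (0.75), DNAJB5 (0.84), HSPB8 (0.84) and DNAJB2 (0.38). The summed level of all 33 genes on the list, tested or not, was 5391 to 5609 CPM in V2084D and 14117 to 14320 CPM in WT. HSF1 had 127 to 132 CPM in V2084D and 154 to 165 CPM in WT (log2 -0.29, adjusted p = 0.00249, edgeR). HSPA6, an HSP70 gene that is nearly silent without stress, was under 1 CPM in all 6 libraries, with a log2 difference of -0.66 (adjusted p = 0.162, edgeR).

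Promoter windows of 300 bases (250 before and 50 after the RefSeq start, GRCh38.p14) were searched for the heat shock element GAANNTTCNNGAA and its reverse complement TTCNNGAANNTTC, counting a gene if any of its windows held a match. Of 28 tested heat shock genes with a window 8 held it (28.6%), against 0.608% of all 27305 genes with a window. The 8 were CHORDC1, DNAJA1, DNAJB6, HSP90AA1, HSP90AB1, HSPA6, HSPA8 and HSPD1. HSP90AA1 has 2 annotated starts, and its match lies only in the window of the downstream one. The windows of HSPA8 (chr11:123062087-123062386, minus strand) and of that start of HSP90AA1 (chr14:102086995-102087294, minus strand) are shown as those of the most abundant chaperone genes that fell, in the direction of transcription, with the matches in capitals. The windows of HSPA1A and HSPA1B held no exact match to these letters.

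HSPA8 promoter: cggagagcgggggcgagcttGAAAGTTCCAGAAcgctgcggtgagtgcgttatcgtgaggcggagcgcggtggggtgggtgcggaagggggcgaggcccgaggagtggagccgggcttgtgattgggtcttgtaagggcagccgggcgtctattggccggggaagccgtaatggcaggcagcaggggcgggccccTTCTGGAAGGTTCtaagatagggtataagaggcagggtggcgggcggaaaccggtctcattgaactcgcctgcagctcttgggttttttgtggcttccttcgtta
HSP90AA1 promoter: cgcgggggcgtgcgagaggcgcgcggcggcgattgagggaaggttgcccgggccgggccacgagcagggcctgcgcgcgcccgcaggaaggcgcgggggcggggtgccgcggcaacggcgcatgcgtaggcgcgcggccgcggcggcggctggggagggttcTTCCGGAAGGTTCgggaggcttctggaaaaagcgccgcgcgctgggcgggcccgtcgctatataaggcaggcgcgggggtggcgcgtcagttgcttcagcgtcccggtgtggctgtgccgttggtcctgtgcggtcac

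Genes of other folding machines fell too. TRiC, the ring-shaped chaperonin that folds actin and tubulin, had 6 of 8 subunit genes called, all lower, and the remaining subunits TCP1 and CCT4 had log2 differences of -0.14 and -0.11. CCT6A had 353, 367 and 359 CPM in V2084D and 720, 701 and 713 CPM in WT (log2 -0.98, adjusted p = 3.7e-07, edgeR). In the endoplasmic reticulum the list split. Of 27 tested genes 14 fell, 6 rose and 7 were not called. The chaperone HSPA5 (BiP) was at 749, 679 and 710 CPM in V2084D and 1536, 1507 and 1500 CPM in WT (log2 -1.09), the lectin chaperone calreticulin (CALR) fell by 1.33 and the disulfide isomerase PDIA4 by 1.32. The genes that rose were XBP1 (1.14), ERN1 (0.98), ERO1B (0.81), HERPUD1 (0.71), DNAJB9 (0.60) and EDEM1 (0.32), which include the sensor IRE1 (ERN1), its target transcription factor XBP1 and members of the degradation branch.

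Proteasome subunits followed the chaperones, with 22 of 31 genes lower, 1 higher (PSMD14, log2 0.20) and a median of -0.46. PSMD1, a scaffold subunit of the regulatory cap, was at 99.3 to 107 CPM in V2084D and 212 to 234 CPM in WT (log2 -1.08). Ribosome biogenesis factors fell in 25 of 32 genes and rose in 1 (GNL3, log2 0.40). RRP9, which binds the U3 small nucleolar RNA, was at 22.9, 20.1 and 29.5 CPM in V2084D and 71.9, 69.6 and 78.9 CPM in WT (log2 -1.60, SE 0.126). Cytosolic ribosomal protein genes did not share this shift: 18 of 64 fell, 10 rose and the median was -0.05.

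**Figure D1:**
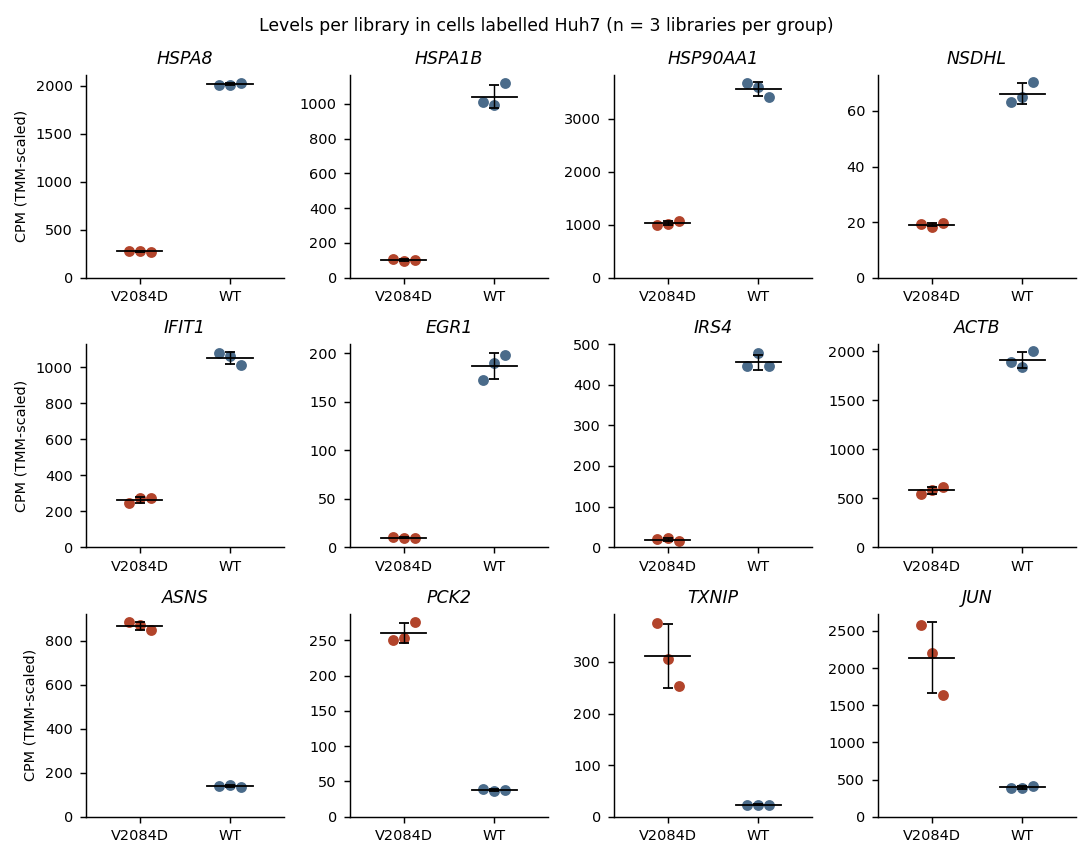
Levels of 12 genes in each library labelled Huh7, in CPM after TMM scaling on linear axes from 0, with points for libraries, horizontal lines for means and bars for SD (n = 3 per group). V2084D stands left and WT right. The 3 V2084D libraries lie below all WT libraries for the first 8 genes (HSPA8 at 271 to 278 against 2011 to 2031 CPM) and above them for ASNS, PCK2, TXNIP and JUN.

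Genes that respond to amino acid shortage moved the other way. ATF4 is the transcription factor of the integrated stress response. It is controlled mainly by translation of its mRNA, and it switches on amino acid synthesis, transport and tRNA charging through composite C/EBP-ATF elements. Of 36 tested ATF4 target genes 32 rose and 1 fell (ATF5, log2 -1.07), with a median log2 difference of 1.31. Asparagine synthetase (ASNS) had 882, 871 and 846 CPM in V2084D and 140, 143 and 135 CPM in WT, a difference of 2.64 (SE 0.0618, adjusted p = 2.6e-09, edgeR) with no overlap. PCK2, the mitochondrial phosphoenolpyruvate carboxykinase, had 251, 254 and 276 CPM in V2084D and 38.8, 36.4 and 37.4 CPM in WT (log2 2.79, SE 0.069). The transsulfuration enzyme CTH rose by 2.92 and the glutathione-degrading enzyme CHAC1 by 2.34. NUPR1, a small stress-induced chromatin protein, had 12, 13 and 16.8 CPM in V2084D and 0.633, 0.552 and 0.757 CPM in WT, the largest rise among the named protein-coding genes over a mean log2 CPM of 1 (log2 4.42, SE 0.211, adjusted p = 2.3e-07, edgeR). The transcript of ATF4 itself was at 839 to 855 CPM in V2084D and 700 to 752 CPM in WT (log2 0.23, adjusted p = 0.00525, edgeR). DDIT3 (CHOP), a pro-death factor of the same pathway, rose by 1.54. The list's summed level was 10062 to 10318 CPM in V2084D and 4914 to 5159 CPM in WT.

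The letters TGATGNAA or TTNCATCA, the core of the amino acid response element, were found in the windows of 10 of 31 target genes (32.3%) and of 4.46% of all genes. The matches were in ASNS, ATF3, CEBPG, CHAC1, FGF21, GARS1, JDP2, SLC1A5, SLC3A2 and SLC7A1. The upstream start of ASNS (chr7:97872359-97872658, minus strand) and the start of CHAC1 (chr15:40953221-40953520, plus strand) are shown, with the matches in capitals. They are examples of genes with a match that rose more than 5-fold. The downstream start of ASNS held no match. Neither did the windows of CTH and PCK2, which rose 7.56-fold and 6.93-fold, or that of PSAT1.

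ASNS promoter: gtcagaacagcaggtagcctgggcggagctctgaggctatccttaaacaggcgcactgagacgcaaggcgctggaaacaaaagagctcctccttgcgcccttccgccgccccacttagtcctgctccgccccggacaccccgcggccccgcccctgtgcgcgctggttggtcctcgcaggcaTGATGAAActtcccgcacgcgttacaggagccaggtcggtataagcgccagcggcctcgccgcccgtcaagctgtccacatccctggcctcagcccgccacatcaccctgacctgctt
CHAC1 promoter: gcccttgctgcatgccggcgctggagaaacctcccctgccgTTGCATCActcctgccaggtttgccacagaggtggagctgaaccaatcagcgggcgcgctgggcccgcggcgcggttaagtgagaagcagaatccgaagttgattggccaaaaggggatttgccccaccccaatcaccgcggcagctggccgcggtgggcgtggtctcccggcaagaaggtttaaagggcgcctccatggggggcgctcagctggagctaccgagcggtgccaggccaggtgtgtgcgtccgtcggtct

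Enzymes that feed one-carbon units rose in 9 of 14 genes and fell in 2 (GLDC and SHMT1). The serine synthesis enzymes PSAT1 and PHGDH rose by 1.61 and 0.71, and the mitochondrial folate enzymes ALDH1L2 and SHMT2 by 1.88 and 0.75. PSAT1 was at 661, 689 and 674 CPM in V2084D and 223, 229 and 210 CPM in WT. Aminoacyl-tRNA synthetases, which charge tRNAs with their amino acids, rose in 12 of 20 genes and fell in 5. YARS1 had 1250, 1217 and 1230 CPM in V2084D and 356, 375 and 382 CPM in WT (log2 1.73, SE 0.0471, adjusted p = 5.3e-09, edgeR). HARS1 went against it, with 76.5 to 97.7 CPM in V2084D and 168 to 181 CPM in WT (log2 -1.01), and the other lower ones were RARS1, QARS1, VARS1 and FARSA. The cystine transporter SLC7A11, which ATF4 and NRF2 share as a target, rose by 2.41. Of the remaining 22 tested NRF2 targets 9 fell and 1 rose (FTL, 0.28), with NQO1 lower by 1.42. ASNSP1, a pseudogene on chromosome 8 copied from ASNS, had 74.5 to 79.4 CPM in V2084D and 4.30 to 6.07 CPM in WT. Reads of the gene and its copy could be exchanged in counting, so its value is uncertain.

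**Figure D2:**
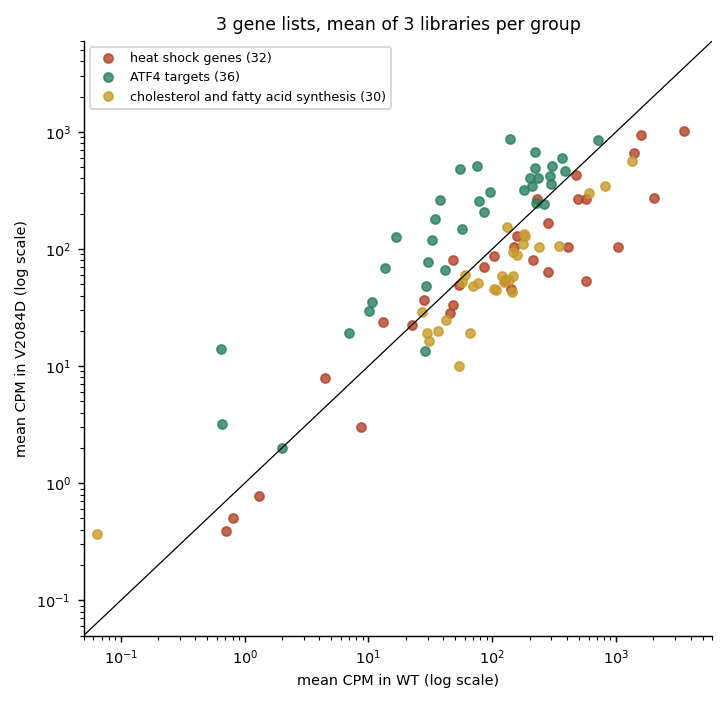
Mean CPM of each tested member of 3 gene lists in V2084D (vertical) and WT (horizontal), both axes logarithmic, with the line of equal level. Points stand for genes and colours for lists. Most ATF4 targets lie above the line (32 of 36 higher), and most heat shock genes (21 of 32) and sterol and fatty acid genes (25 of 30) below it.

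Genes for making lipids were lower. The transcription factors SREBF1 and SREBF2 raise these genes when sterols run short. Of 30 tested genes of cholesterol and fatty acid synthesis 25 fell, 1 rose (FADS1, 0.22) and the median log2 difference was -0.89. NSDHL, an enzyme of the late sterol pathway, had 19.2, 18.4 and 19.6 CPM in V2084D and 63.1, 65.2 and 70.5 CPM in WT, with no overlap (log2 -1.80, SE 0.0737, adjusted p = 9.7e-08, edgeR). DHCR7, which makes cholesterol in the last step of that pathway, was at 40 to 44.6 CPM in V2084D and 136 to 152 CPM in WT (log2 -1.75), and the fatty acid desaturase SCD fell by 1.24. SREBF2 fell by 0.43, and SREBF1 had a log2 difference of -0.12 (adjusted p = 0.12, edgeR). The letters TCACNCCAC or GTGGNGTGA, the core of the sterol response element, were in the windows of 1 of 23 list members (SREBF2, 4.35%) and of 1.39% of all genes.

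Immediate early genes, which answer growth factor signals within minutes, split by member. Of 26 tested genes 11 fell and 9 rose. EGR1, a zinc finger factor downstream of ERK, had 10.9, 9.72 and 9.12 CPM in V2084D and 172, 190 and 198 CPM in WT (log2 -4.23, SE 0.124, adjusted p = 8.2e-09, edgeR), and its groups were 18.8-fold apart. FOS had 4.80, 4.29 and 3.78 CPM in V2084D and 61.7, 70.9 and 66.5 CPM in WT (log2 -3.95). JUN, the partner of FOS in the AP-1 factor, went the opposite way, with 2587, 2206 and 1635 CPM in V2084D and 384, 386 and 417 CPM in WT (log2 2.44, SE 0.138). ATF3, which is both an immediate early gene and an ATF4 target, rose by 3.12 and KLF6 by 1.55, while JUNB fell by 1.32.

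RHOB, an early-response GTPase, had 1431, 1181 and 786 CPM in V2084D and 133, 142 and 152 CPM in WT (log2 2.99). Genes of ERK feedback, which the pathway induces and most of which restrain it, fell in 10 of 17 and rose in 3 (DUSP8, DUSP10 and DUSP1). The ETS factors ETV4 and ETV5 fell by 1.68 and 1.66 and the ERK phosphatase DUSP6 by 1.93, while CCND1, the G1 cyclin, was at 71.4 to 74.9 CPM in V2084D and 124 to 129 CPM in WT (log2 -0.80).

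IRS4, an insulin receptor substrate that 293 cells make in unusual amount, had the largest fall among the named protein-coding genes over a mean log2 CPM of 1. It had 19.7, 21.7 and 15.5 CPM in V2084D and 445, 477 and 445 CPM in WT (log2 -4.59, SE 0.197, adjusted p = 1.1e-07, edgeR). The remaining genes of the insulin and IGF pathway did not share one direction, with 10 of 29 higher and 8 lower in all. The other markers of 293 cells were mixed: those that fell included WT1, CITED1, SIX2, HOXA10 and LHX1, while STMN2, PAX2, NEFL and HOXD10 rose. The summed level of all 18 markers, IRS4 included, was 572 to 608 CPM in V2084D and 1076 to 1109 CPM in WT, most of that gap being IRS4. Whether a difference in line or clone had a part in it was not tested.

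The innate antiviral response was represented by interferon-stimulated genes. Of 38 tested 18 fell, 16 were not called and 4 rose (BST2, HLA-E, IFI35 and USP18), with a median of -0.31. IFIT1, which binds foreign RNA caps, had 244, 275 and 274 CPM in V2084D and 1080, 1064 and 1013 CPM in WT (log2 -1.99, SE 0.0672, adjusted p = 2.2e-08, edgeR). OASL fell by 1.83, DDX58, which encodes the RNA sensor RIG-I, by 1.71 and IFIT3 by 1.06. Their levels in WT, 197 to 258 CPM for OASL and DDX58, were above all those in V2084D.

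HOX genes, which lay down position along the body axis, fell as a family: 29 of 38 tested genes fell, 2 rose (HOXC4 and HOXD10) and the median was -0.65. HOXB6 had 20.4, 22.2 and 26.3 CPM in V2084D and 74.1, 68.3 and 76.1 CPM in WT (log2 -1.67, SE 0.092), HOXC9 fell by 1.58, and HOXA11, HOXB8 and HOXC13 by 1.11, 1.10 and 1.02. The genes named lie in clusters A, B and C. Subunits of the polycomb complexes that hold HOX genes silent were mixed, with 11 of 31 higher and 9 lower. The differences were small: RBBP4 rose by 0.61 and PHC2 by 0.47, and RING1 fell by 0.54 and KDM2B by 0.47.

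**Figure D3:**
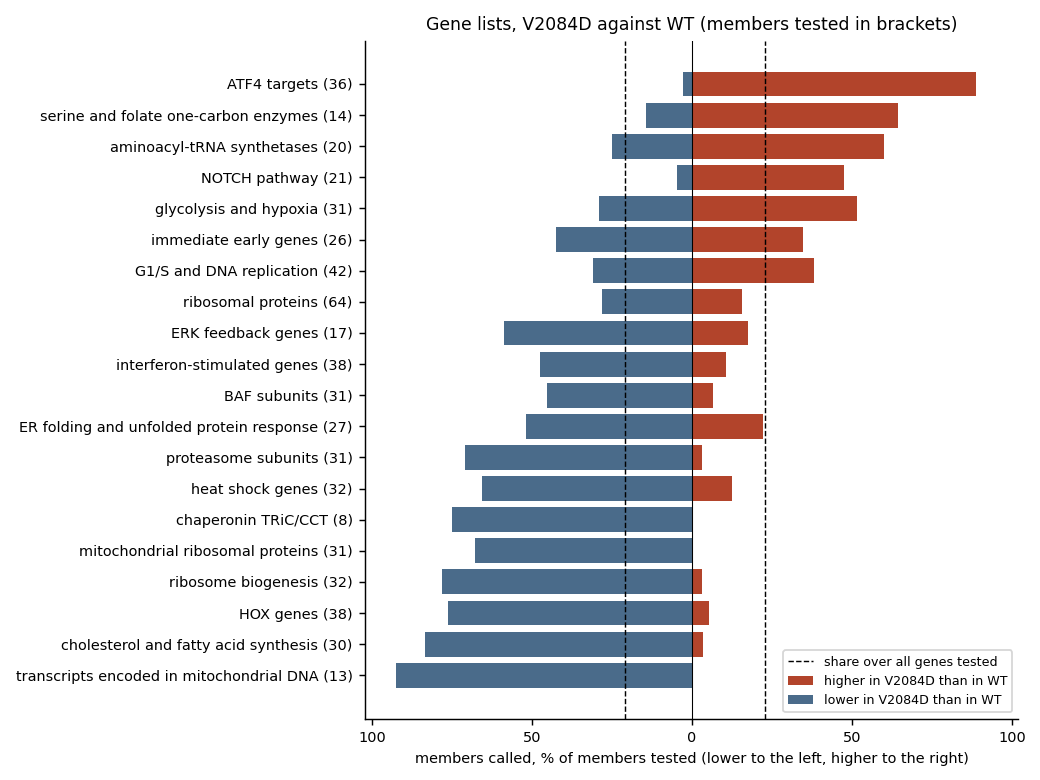
Share of tested members called higher (right) and lower (left) in V2084D than in WT for 20 of the 43 gene lists, with the number tested in brackets and dashed lines at the shares over all genes (22.9% higher, 21.0% lower). ATF4 targets reach furthest to the right (32 of 36), and transcripts encoded in mitochondrial DNA furthest to the left (12 of 13).

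TXNIP and ARRDC4 encode arrestin-fold proteins that remove glucose transporters from the membrane, and both are induced through the glucose-sensing pair of MLX with MLXIP or MLXIPL. TXNIP had 376, 305 and 253 CPM in V2084D and 23.5, 23.4 and 22.1 CPM in WT (log2 3.76, SE 0.135, adjusted p = 3.4e-08, edgeR). ARRDC4 had 390, 327 and 266 CPM in V2084D and 45.2, 43.4 and 39 CPM in WT (log2 2.95, SE 0.133). No library of the groups overlapped for either gene. MLX and MLXIP fell by 0.67 and 0.70. The letters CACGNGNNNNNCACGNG or their reverse complement, a pattern for the carbohydrate response element, were in the windows of 20 of 27305 genes (0.0732%), the upstream start of TXNIP (chr1:145996530-145996829, minus strand) among them. It is shown with the match in capitals, and the ARRDC4 window held no exact match.

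TXNIP promoter: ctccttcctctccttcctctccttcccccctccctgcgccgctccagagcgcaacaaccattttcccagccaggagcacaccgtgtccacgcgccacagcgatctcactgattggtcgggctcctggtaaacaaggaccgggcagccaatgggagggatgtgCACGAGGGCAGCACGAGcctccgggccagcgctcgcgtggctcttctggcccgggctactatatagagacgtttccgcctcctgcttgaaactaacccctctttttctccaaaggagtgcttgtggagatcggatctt

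Genes of glycolysis and hypoxia went both ways, with 16 of 31 higher, 9 lower and 6 not called. The mitophagy receptor BNIP3L rose by 1.57, the angiogenic factor VEGFA by 1.16 and the kinase PDK1 by 0.92. The glycolytic enzymes PKM and PGAM1 fell by 0.86 and 0.92, with PKM at 1080 to 1175 CPM in V2084D and 1960 to 2175 CPM in WT. The pentose phosphate enzymes PGD and TKT, which are NRF2 targets, fell by 1.09 and 0.63. Metallothioneins, which bind zinc and copper, rose in all 3 tested genes of that family, and the zinc transporters SLC39A10 and SLC30A10 rose by 0.46 and 0.77. MT2A had 117, 155 and 147 CPM in V2084D and 25.1, 24.3 and 29.2 CPM in WT (log2 2.42), and MT1X and MT1F rose by 1.96 and 1.76. These genes are close copies of each other, so the counts of single members are uncertain. TSC22D3 (GILZ), a glucocorticoid- and FOXO-induced gene, rose, with 487 to 500 CPM in V2084D and 93.5 to 97.5 CPM in WT (log2 2.36, SE 0.0685, adjusted p = 8.2e-09, edgeR).

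Messages for mitochondrial proteins were lower from both genomes. Of 13 protein-coding transcripts of mitochondrial DNA 12 fell, and MT-ND6, the only one on the light strand, had a log2 difference of -0.26. MT-CYB had 933, 986 and 706 CPM in V2084D and 1969 to 2194 CPM in WT (log2 -1.25, SE 0.106). The ribosomal RNAs of the same genome did not follow: MT-RNR2 had 6010, 6570 and 5630 CPM in V2084D and 3546, 3699 and 3456 CPM in WT (log2 0.77). Nuclear genes of oxidative phosphorylation fell in 24 of 46 and rose in 2 (UQCRC2 and UQCRH), with a median of -0.25. In the comparison of lines below 0 of these 46 were called different, and their median in 293T was -0.23. Mitochondrial ribosomal proteins fell in 21 of 31 and rose in none. MRPL20 was at 21.6 to 29.8 CPM in V2084D and 81.8 to 85.6 CPM in WT (log2 -1.71). MT-CYB was at 1773 to 1958 CPM with shSTUB1, beside 706 to 986 CPM in V2084D alone. In bulk RNA fewer cells of a kind and less RNA per cell cannot be told apart.

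Genes of cell division and death were mixed. DNA replication genes rose in 16 of 42 and fell in 13, with the replicative helicase subunit GINS3 lower by 1.35, the ribonucleotide reductase subunit RRM2 lower by 1.08 and E2F2 higher by 0.94. Mitotic genes fell in 18 of 42 and rose in 13: AURKB, CCNB1 and PLK1 fell by 0.96, 0.72 and 0.70, and the kinetochore genes NDC80 and NUF2 rose by 0.87 and 0.85. The BH3-only killers HRK, BBC3 (PUMA) and BMF rose by 2.16, 1.21 and 0.86, while BAX, which they act through, fell by 1.04. NOTCH pathway genes rose in 10 of 21 and fell in 1 (NOTCH2, -0.71), with the ligands JAG1, JAG2 and DLL1 higher by 0.96, 0.85 and 0.81, the nuclear effector RBPJ by 0.98 and the target HES1 by 0.89.

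Beyond the lists, the largest rises among named protein-coding genes included AFF2, a component related to the super elongation complex (20.3 CPM in V2084D and 1.41 CPM in WT, log2 3.86), HAPLN2, a hyaluronan link protein (log2 3.67), G0S2, an inhibitor of the lipase ATGL (3.38), and FUT1, a fucosyltransferase of blood group H (3.25). FPGT-TNNI3K is a read-through transcript whose counts overlap its parent genes, so its rise of 3.11 is uncertain. The largest falls included HYAL3, a hyaluronidase family gene (-2.97), the adaptor DOK3 (-2.89), AMIGO3 (-2.46), QRICH2 (-2.43) and the G protein subunit GNB3 (-2.35). All were under 25 CPM in every library of the 6. Groups without overlap were a condition for choosing these genes, so their separation is not a further result.

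Long non-coding genes were more often higher than lower. Of 3555 tested, 679 rose (19.1%) and 253 fell (7.12%), with a median log2 difference of 0.24. Both shares were under those over all genes tested (22.9% and 21.0%). Protein-coding genes were balanced, with 3982 higher (26.3%) and 4015 lower (26.5%) of 15127 and a median of 0.00. Genes at low level tilted upward as well. Under 1 CPM 9.44% rose and 4.51% fell, and at 1 to 4 CPM 25.8% rose and 12.8% fell (median 0.17). The classes were not matched for level. The named ones with the largest rises were MAILR (3.09), PCOLCE-AS1 (2.35), ZNF710-AS1 (2.29) and FBXO30-DT (2.18), and those with the largest falls PPM1F-AS1 (-2.22), SLC25A25-AS1 (-1.93), OGFRP1 (-1.76) and CIRBP-AS1 (-1.70). PPM1F-AS1 was uneven in V2084D, with 13.2, 2.31 and 1.35 CPM there and 25 to 28 CPM in WT, its call was lost without V2084D replicate 2 (log2 -1.84, adjusted p = 0.0559, edgeR), and its log2 difference was -3.82 without V2084D replicate 1 (adjusted p = 9.1e-06, edgeR). The strand setting of the counting is not given in the sources used here, so antisense genes could hold reads of their partners.

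Direction also varied with base composition and position. Genes were put into 5 bins of equal size by the GC content of their exons. In the bin with the lowest GC content (median 39.7%) 29.3% rose and 13.7% fell, and in the bin with the highest (median 62.7%) 19.8% rose and 29.7% fell. The median log2 differences of these bins were 0.15 and -0.12. On chromosome 6, 352 of 1057 genes rose and 132 fell (33.3% and 12.5%), and on chromosome 4, 31.2% rose and 13.4% fell. Chromosomes 19 and 17 had the largest share of lower genes among the nuclear chromosomes, 29.3% on each, with 18.2% and 16.3% higher. Chromosome 21 had the smallest share of higher genes among them (15.6%, with 25.9% lower). How far GC content and chromosome overlap was not tested. Offsets for GC content and length moved the share of higher genes among those called to 44.4%, against 52.1% without them.

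**Figure D4:**
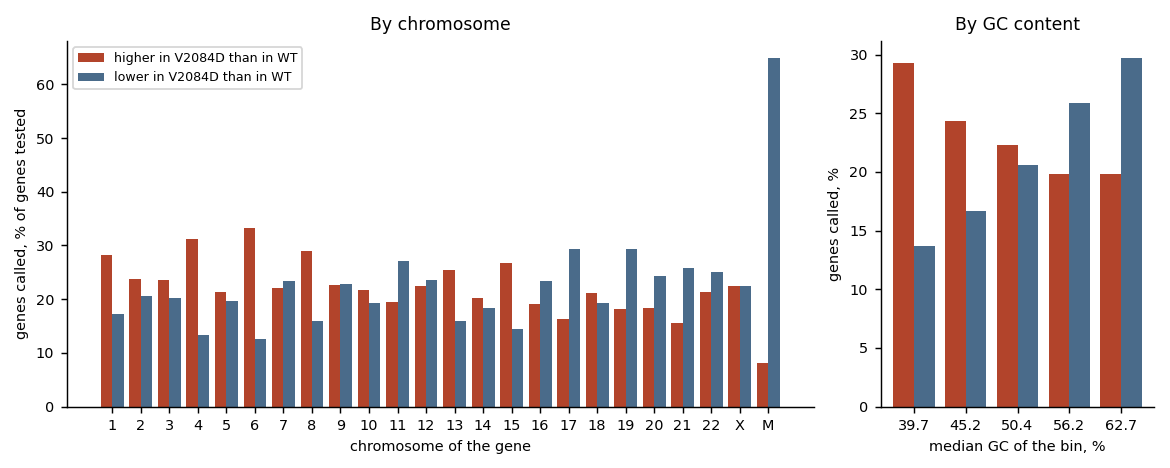
Percent of tested genes called higher and lower in V2084D than in WT by chromosome (left, M for the mitochondrial genome) and by bin of GC content (right, labelled with the median GC of the bin). Chromosome 6 has the largest share of higher genes among the nuclear chromosomes (33.3%) and chromosome M the largest share of lower ones (64.9%).

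The same ARID1A forms had been put into knocked-out cells labelled 293T, and the difference between V2084D and WT was compared between the lines in a joint fit of all 27 libraries. Over 20132 genes tested in both, 2559 (12.7%) had a V2084D minus WT difference that was not the same in the lines, 1422 (7.06%) with a larger value in Huh7 and 1137 (5.65%) with a smaller one. In the 293T arm of the same fit 0 of 20132 genes passed the adjusted threshold for V2084D minus WT in edgeR. At an unadjusted threshold of 0.05 there were 598, and DESeq2 gave 7 adjusted calls. Large gaps between 293T means, such as those of HSPA1A and HSPA6 below, did not pass either. The 0 therefore does not show that V2084D had no effect in 293T. To the calls between lines ATF4 targets contributed 23 of 36 in the higher direction and 1 in the lower, and heat shock genes 17 of 32 in the lower and 1 in the higher. Levels that follow are joint-scaled mean CPM. HSPA1A was at 52.6 CPM in V2084D and 554 CPM in WT in the libraries labelled Huh7, and at 1875 CPM in V2084D and 357 CPM in WT in those labelled 293T. Its log2 differences were -3.40 in Huh7 and 2.39 in 293T, where it did not pass the threshold (adjusted p = 0.463, edgeR), and they differed by -5.79 (SE 0.725, adjusted p = 1.6e-05, edgeR).

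HSPA6 had the widest gap between lines among the genes named here (log2 -6.69, SE 1.77), with 126 CPM in V2084D and 1.92 CPM in WT in 293T. That 293T difference did not pass the threshold (log2 6.05, adjusted p = 0.463, edgeR), and HSPA6 was under 1 CPM in Huh7. TXNIP was higher by 3.78 in Huh7 and had a log2 difference of -0.73 in 293T (adjusted p = 1, edgeR), and NUPR1 had 4.45 in Huh7 and -0.46 in 293T. IRS4 was at 18.6 CPM in V2084D and 439 CPM in WT in Huh7, and at 273 CPM in V2084D and 185 CPM in WT in 293T. EGR1 had -4.21 in Huh7 and 0.25 in 293T. ASNS was level in 293T, with 142 CPM in V2084D and 153 CPM in WT, beside 848 CPM and 134 CPM in Huh7. ARID1A itself was not expressed alike in the lines: its joint mean was 246 CPM in V2084D and 356 CPM in WT in Huh7, and 71048 CPM in V2084D and 26298 CPM in WT in 293T. The V2084D minus WT difference of ARID1A in 293T (log2 1.43) did not pass the threshold. It was not called different between the lines either (log2 -1.97, SE 1.52, adjusted p = 0.445, edgeR).

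**Figure D5:**
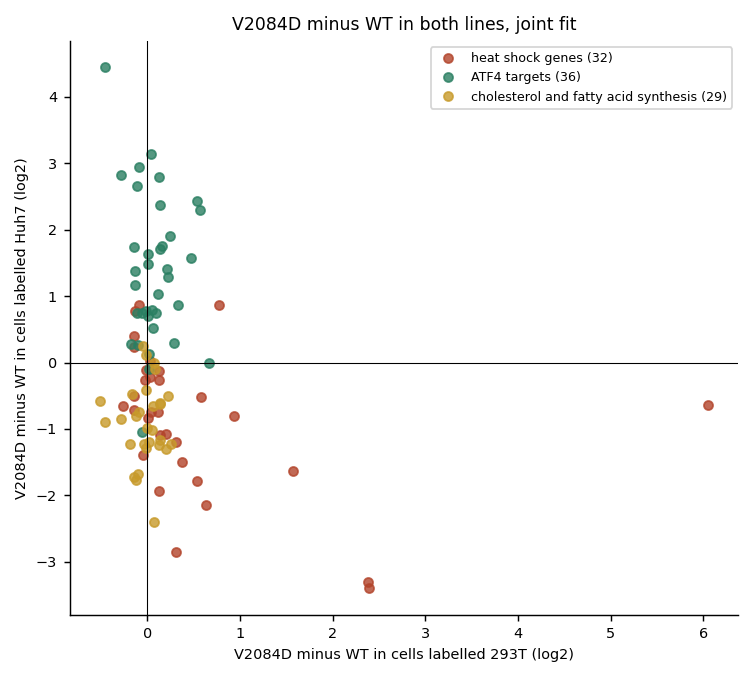
Log2 difference of V2084D minus WT in cells labelled Huh7 (vertical) and in cells labelled 293T (horizontal) from the joint fit, for the members of 3 gene lists, each point a gene. ATF4 targets spread upward at horizontal values near 0, and heat shock genes spread downward, with HSPA1A and HSPA1B at -3.40 and -3.31 in Huh7 beside 2.39 and 2.38 in 293T and HSPA6 alone at 6.05 in 293T. None of these 293T differences passed the adjusted threshold.

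The shSTUB1 libraries carry the V2084D form too and share those libraries as their control, so their levels are given side by side without a test. HSPA8 was at 134 to 145 CPM with shSTUB1 and at 271 to 278 CPM in V2084D alone, so lower still, and HSPA1B was at 35 to 39.8 CPM and 97.8 to 109 CPM. ASNS was at 601 to 695 CPM with shSTUB1 and at 846 to 882 CPM in V2084D alone. TXNIP was at 125 to 141 CPM with shSTUB1 and at 253 to 376 CPM in V2084D alone, JUN at 777 to 884 CPM and 1635 to 2587 CPM, and RHOB at 436 to 579 CPM and 786 to 1431 CPM. MT2A was at 28.8 to 36.7 CPM with shSTUB1 and at 117 to 155 CPM in V2084D alone, beside 24.3 to 29.2 CPM in WT. EGR1, IRS4 and ACTB stayed far below their WT range with shSTUB1, at 5.81 to 7.56, 14.5 to 24 and 553 to 588 CPM.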

How the data were processed

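Whole-number gene counts, as deposited by the authors, were used for the 9 libraries labelled Huh7 and, between lines, for all 27. Per the labels' protocols, Trizol-extracted total RNA went into NEBNext Ultra II libraries. Per the submitters' processing notes, the build was GRCh38 and edgeR was used; the aligner, counter and strand setting are not given in the sources used here, so how reads of near-identical or overlapping genes were assigned is unknown.

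Genes with at least 10 counts in 3 of the 6 compared libraries were tested in edgeR 4.0.16 under R 4.3.3. TMM factors scaled the libraries, the 9 libraries labelled Huh7 entered 1 quasi-likelihood model (common biological coefficient of variation 22.9%), and F test p-values were adjusted by Benjamini-Hochberg over every gene tested, with a threshold of 0.05. Each SE was derived from the log2 difference and its F. Levels are TMM-scaled CPM computed from the deposited counts. GENCODE 29 gave positions and types for 98.1% of genes tested, and the ARID1A coding sequence. Promoter sequences are from RefSeq (GRCh38.p14). Replicate libraries differed by more than counting noise, so the spread between libraries and not depth limits the precision. Counts for V2084D minus WT were simulated over 21600 genes, and the genes to change were drawn only from those averaging at least 1 CPM. Of these, 47 of 50 genes raised 2-fold were called in the right direction, and so were 39 of 50 set to 0.5 of their level. Recovery was not measured for the 5898 tested genes under 1 CPM.

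Replicate numbers did not pair V2084D with WT libraries (deviation correlations of -0.014 to 0.021). Alternatives were RLE size factors, DESeq2 1.42.0, other filters, the 6 compared libraries only, the replicate block, each compared library left out and a log2 threshold of 1. Added after seeing the data were GC and length offsets, DESeq2 for the 293T comparison and the removal of shSTUB1 replicate 2 or of 2 293T G2087R libraries. The gene lists and members were chosen with earlier results of these data known. Open to naming were ARID1A, STUB1, the 12 largest differences in each direction among called protein-coding genes with separate groups and a mean log2 CPM of 1 or more, the 5 smallest p and 4 long non-coding genes in each direction, 5 members of each list by p, and 4 genes in each direction by the difference between lines. Chosen outside that rule, with their values known, were ATF4, DDIT3, DNAJB1, HSPA6, HSF1, ACTG1, SREBF1, SREBF2, MT-RNR2, MT-ND6, markers, motif matches, MLX, MLXIP and list members named for going against or missing the direction of their list. Some genes are not reported here.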

Additional observations from a re-analysis of the deposited data

Results flagged for a closer look

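The V2084D minus WT difference was not the same in the libraries labelled Huh7 and 293T for 2559 genes in the joint test of the difference (edgeR, adjusted over 20132 genes). Those named in the report had a log2 difference between lines (Huh7 minus 293T) of 4.91 for NUPR1, 4.51 for TXNIP, 3.76 for HAPLN2 and 3.34 for G0S2 on the higher side. On the lower side it was -5.12 for IRS4, -4.46 for EGR1, -5.79 for HSPA1A, -5.69 for HSPA1B and -6.69 for HSPA6. HSPA6 was at 0.497 CPM in V2084D and 0.772 CPM in WT in the libraries labelled Huh7, and at 126 CPM in V2084D and 1.92 CPM in WT in those labelled 293T. Its difference within 293T did not pass the threshold (adjusted p = 0.463, edgeR). The lines also differ in total ARID1A reads, given in the report, and the part of that gap in these differences was not tested.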

How the results depend on the processing

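Each of the 16 alternative fits of V2084D minus WT gave 8139 to 10212 called genes, within 1.5 times the 9481 of the report, and shared 84 to 99.4% of its calls. At a log2 difference of at least 1 there were 2484 calls (1551 higher, 933 lower). With the replicate number as a block, 8832 genes were called with 9 libraries and 9764 with 6. The numbers are not paired by the labels, and deviations of same-numbered libraries did not correlate, so this is no paired test. Leaving out each library in turn gave 8139 to 8767 calls. DESeq2 called 10046 genes. For the difference between lines the count was 1723 to 3264 across 19 alternatives, with 2832 under the replicate block and 1934 to 2527 with a library left out; with no filter on low counts the lower genes were 701, against 1137.

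ARID1A kept its direction throughout (log2 -0.61 to -0.45), and its call was lost at -0.54 with no filter, at -0.54 with the replicate block of 9 libraries, and in 5 of 6 fits without 1 library (-0.61 to -0.45), and -0.56 is under the log2 threshold of 1. STUB1 was at 0.13 to 0.26 without 1 of the libraries and passed the threshold at 0.21 with the 6 compared libraries, at 0.21 in the replicate block of 6 and without shSTUB1 replicate 2, and at 0.25 with GC and length offsets. Of 227 called genes open to naming, 7 lost the call in at least 1 fit: ARID1A, CPS1, DCN, COL1A1, COL1A2, COL3A1 and PPM1F-AS1. VWF, which was not called, was at -0.32, -0.05 and -0.28 in 3 of the fits without a library and at up to 0.82 in the others. The causes were not tested. Low counts limit genes under 1 CPM, where 557 of 5898 were called higher and 266 lower.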

Other observations

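Lysosome and autophagy genes fell in 12 of 31 and rose in 8, with the lysosomal enzymes GLA and CTSA lower by 1.42 and 1.23 on the log2 scale, MCOLN1 lower by 0.86 and GABARAPL1 higher by 0.69. Collagen, laminin and integrin genes rose in 11 of 39 and fell in 3, with COL6A3 at 59.4, 57.9 and 49.7 CPM in V2084D and 18.1, 18.5 and 20.2 CPM in WT (log2 1.55), LAMB2 higher by 0.95 and COL2A1 lower by 0.93. Genes of YAP and TEAD were mixed, with 6 of 31 higher and 8 lower: GADD45A and AXL rose by 1.76 and 1.07 and CCN2 fell by 0.91. TGF-beta and BMP genes rose in 12 of 31 and fell in 10, with INHBE, an ATF4-responsive activin subunit, at 27.8, 21.3 and 25.6 CPM in V2084D and 4.11, 4.76 and 3.44 CPM in WT (log2 2.60). WNT genes fell in 12 of 31 and rose in 7, with NOTUM, a WNT-inactivating lipase, higher by 1.53 and TCF7 lower by 0.86. Of 23 tested NF-kB and cytokine genes 6 fell and 2 rose, with ICAM1 lower by 1.71 and NFKB1 by 0.71.

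Kidney progenitor and neuronal transcription factors fell in 10 of 25 and rose in 5, with SOX4 higher by 1.03 and TBX3 lower by 0.79. Neuronal cytoskeleton genes rose in 8 of 24 and fell in 5, with CELF4 higher by 1.82 and MAP2 by 0.99. Epithelial and mesenchymal genes rose in 5 of 28 and fell in 5, with S100A4 higher by 1.30 and KRT18 lower by 0.74.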
